A study of Mus musculus with 8 samples.

Results

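Microarray signals of 9 mature microRNAs (miRNAs) were followed in the culture medium of primary mouse muscle cells: mmu-miR-199a-3p, mmu-miR-199a-5p, mmu-miR-199b-5p, mmu-miR-214-3p and mmu-miR-214-5p of the miR-199 and miR-214 loci, mmu-miR-143-3p, mmu-miR-145a-5p and mmu-miR-145a-3p of the cluster of miR-143 and miR-145, and mmu-miR-152-3p (the species prefix is left out below). They were chosen by name, as miRNAs known from fibroblasts and other mesenchymal cells, out of 1881 mouse miRNAs on the array. The series set medium conditioned by muscle cells with mutant human SOD1 against medium conditioned by cells with wild-type human SOD1, to see which miRNAs are secreted. Myoblasts came from the hind limb muscles of newborn mice (1 to 3 days old, given as male in the labels), and grew in transwell plates, where a lower chamber and an insert share medium through a membrane with pores of 0.4 µm.

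G93A/G93A cultures (n = 3) held hSOD1(G93A) cells in both chambers, G93A/WT cultures (n = 3) held hSOD1(G93A) cells below and hSOD1(WT) cells in the insert, and WT/WT cultures (n = 2) held hSOD1(WT) cells in both. The hSOD1(G93A) cells came from B6SJL(Tg-SOD1*G93A)1Gur/J mice, a model of amyotrophic lateral sclerosis. The hSOD1(WT) cells came from B6SJL(Tg-SOD1)2Gur/J mice. Every culture therefore carried a human SOD1 transgene, and cells without one were not analysed here. Lower chambers received 2.5 and inserts 1.5 (in units of 100000 cells), and medium was taken on day 2 in vitro. The labels describe a proliferation medium with 10% foetal bovine serum, exchanged at that time for a differentiation medium with 2% horse serum. They do not say which of the media was profiled, and serum miRNAs of the same sequence would give signal on the same probes. Each array is a separate biological replicate per the labels, which name no litter or culture day.

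A miRNA is cut from a hairpin precursor, and either strand of the stem (the 5p or the 3p arm) can become the mature miRNA, whose seed, bases 2 to 8, selects the messenger RNAs it represses. In mice miR-199a and miR-214 are made together from Dnm3os, a long noncoding RNA that runs antisense inside the dynamin gene Dnm3 and is active in embryonic mesenchyme, bone and connective tissue. miR-199a-5p is known for promoting the activation of fibroblasts, and miR-214 for repressing the Polycomb enzyme Ezh2 as mouse myoblasts differentiate. miR-143 and miR-145 are a cluster known best from smooth muscle and fibroblasts, and miR-152 lies in the gene Copz2 and is known for repressing the DNA methyltransferase Dnmt1.

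Mature sequences were taken from RefSeq (GRCm38.p6) for 5 of the 9 members, and are printed to show which members an array probe could confuse and which share a seed. Capitals mark the seed.
miR-199a-5p: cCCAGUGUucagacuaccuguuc
miR-199a-3p: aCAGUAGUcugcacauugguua
miR-214-3p: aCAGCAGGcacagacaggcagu
miR-214-5p: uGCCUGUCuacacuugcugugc
miR-152-3p: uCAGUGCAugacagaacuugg
miR-148a-3p: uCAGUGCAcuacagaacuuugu

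The miR-199a-5p sequence lies at chr1:162217844-162217866 (plus strand, precursor Mir199a-2, inside Dnm3os) and at chr9:21496537-21496559 (minus strand, precursor Mir199a-1, inside Dnm2). The miR-199a-3p sequence was present in 3 precursors, Mir199a-1, Mir199a-2 and Mir199b (chromosome 2, inside Dnm1), and is identical to miR-199b-3p, so its signal sums the output of all of these loci. miR-199a-5p is more specific: its closest stretch in the Mir199b hairpin differed by 1 base, C10U, counted from the 5′ end of miR-199a-5p. That base lies outside the seed, so this stretch of Mir199b also holds the miR-199a-5p seed. miR-214-3p (chr1:162223438-162223459) and miR-214-5p (chr1:162223397-162223418) come from Mir214, which starts 5444 bases after Mir199a-2 on the same strand. miR-152-3p (chr11:96850439-96850459) shares its seed with miR-148a-3p and miR-148b-3p, and no other pair of members printed here shares one.

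The 2 precursors made from Dnm3os are shown because the arms of miR-214 differed in detection, whereas both arms of miR-199a were detected on all 8 arrays. Capitals mark the mature arms, first the 5p and then the 3p.
Mir199a-2: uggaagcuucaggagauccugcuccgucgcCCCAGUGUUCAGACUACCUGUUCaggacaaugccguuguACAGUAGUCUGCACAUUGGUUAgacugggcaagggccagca
Mir214: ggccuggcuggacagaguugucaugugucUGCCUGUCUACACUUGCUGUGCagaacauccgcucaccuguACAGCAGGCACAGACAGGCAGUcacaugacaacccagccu

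Between 450 and 563 of the 1881 mouse miRNAs were detected per array. Values below are scaled signals, that is the array's linear signal per miRNA multiplied by a factor that equalises the 75th percentile of the 423 miRNAs detected on all 8 arrays. The factors ran from 0.593 to 1.44, lowest on the 3 G93A/WT arrays, which were the brightest before scaling. Testing covered the 538 miRNAs that 2 or more arrays detected. The muscle miRNAs miR-206-3p, miR-133a-3p, miR-133b-3p and miR-1a-3p were detected on every array, miR-499-5p on 1 and miR-208b-3p on none. The arrays lay on 1 slide, with WT/WT 1 and the G93A/WT arrays in row 1 and WT/WT 2 and the G93A/G93A arrays in row 2.

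Of the 9 members 6 were detected on all 8 arrays, namely miR-199a-3p, miR-199a-5p, miR-199b-5p, miR-214-3p, miR-152-3p and miR-143-3p. Members of the miR-199 and miR-214 loci were thus present in all media, whereas of the cluster of miR-143 and miR-145 only miR-143-3p was found. The miR-143-3p signal was 3.41 to 8.61 times the scanner's own error, against 8.52 to 13.4 times over the other 5 detected members. Both arms of miR-145a were undetected on all 8 arrays, as was miR-145b. For miR-214 the 3p arm was detected everywhere, while miR-214-5p was detected on G93A/G93A 1 alone, at a signal of 7.07 with a scanner error of 0.964 before scaling. Not detected means below the scanner's detection limit, whose lowest detected signals were 1.31 to 1.59 per array. Mesenchymal miRNAs were thus found from the miR-199 and miR-214 loci, with miR-143-3p and miR-152-3p, while miR-145a, known from smooth muscle, was not detected.

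miR-199a-5p was the 1 member that passed the test, with less signal in G93A/G93A medium than in WT/WT medium. Its scaled signal was 50.2, 38.6 and 52.0 in G93A/G93A, 64.3, 72.6 and 56.4 in G93A/WT, and 80.8 and 86.7 in WT/WT. Every G93A/G93A array lay below every G93A/WT array, and these in turn lay below both WT/WT arrays. In G93A/G93A medium the level was 0.556 times that of WT/WT medium, a log2 difference of −0.85 ± 0.17 (SE, limma adjusted p = 0.0291). The intermediate G93A/WT level did not pass against WT/WT (−0.38 ± 0.17, adjusted p = 0.219), nor did G93A/G93A against G93A/WT (−0.46 ± 0.15, adjusted p = 0.0923). Of the 538 tested miRNAs, 15 (2.79%) showed this order without overlap. Besides miR-199a-5p they included miR-125b-5p, miR-23b-3p and the epithelial miR-200c-3p, miR-203-3p, miR-205-5p and miR-429-3p.

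The call for miR-199a-5p was close to the threshold. It passed in 10 of 22 alternative settings, with a difference below zero in all 22 (−0.93 to −0.68, adjusted p = 0.0193 to 0.489). It did not pass without WT/WT 1 (adjusted p = 0.135), WT/WT 2 (0.144), G93A/G93A 1 (0.0518), G93A/G93A 2 (0.0592) or G93A/WT 1 (0.0569), nor with the slide row as a block (−0.90, adjusted p = 0.135) or within row 2 (−0.90, adjusted p = 0.306), both of which leave WT/WT 2 as the only comparator.

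**Figure D1:**
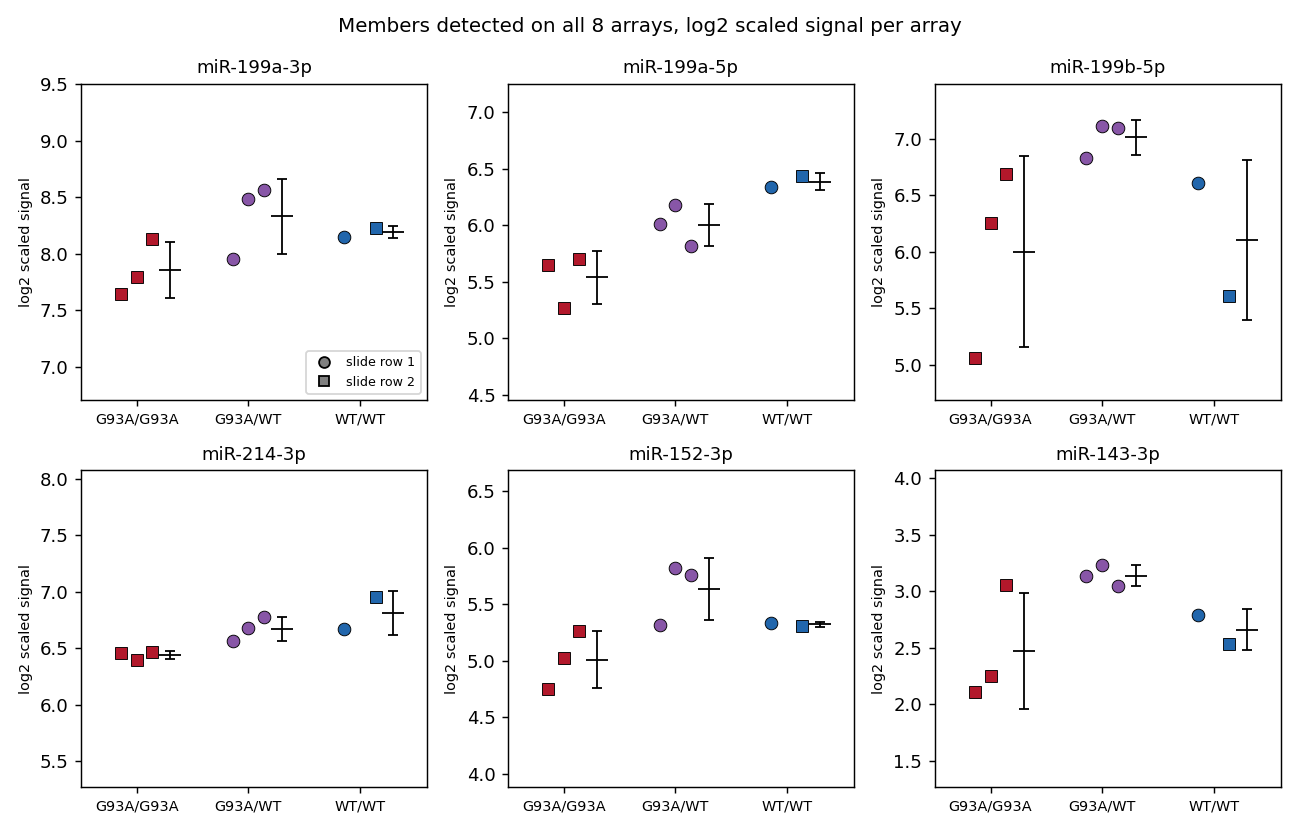
Log2 scaled signal of the 6 members detected on all arrays, for G93A/G93A, G93A/WT and WT/WT medium. Each point is 1 array, circles in slide row 1 and squares in row 2, and black bars are the group mean ± SD (n = 3, 3 and 2); all panels span the same number of log2 units. miR-199a-5p has means of 5.54 in G93A/G93A, 6.0 in G93A/WT and 6.39 in WT/WT, with no overlap between groups, while miR-199b-5p is spread over G93A/G93A (SD 0.84) and WT/WT (SD 0.71).

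The other arm of the same precursors, miR-199a-3p, known in mice for restraining the IGF and mTOR growth pathway in muscle cells, passed in no comparison. Its scaled signal was 201, 222 and 281 in G93A/G93A, 248, 358 and 379 in G93A/WT, and 285 and 301 in WT/WT. The G93A/G93A arrays lay just below both WT/WT arrays, and the G93A/WT arrays spanned them. The log2 difference was −0.33 ± 0.22 for G93A/G93A against WT/WT (adjusted p = 0.380), 0.14 ± 0.22 for G93A/WT against WT/WT (adjusted p = 0.709) and −0.47 ± 0.20 for G93A/G93A against G93A/WT (adjusted p = 0.153; all SE).

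The ratio of the arms on one array does not depend on the single factor by which that array is scaled. The log2 ratio of miR-199a-5p to miR-199a-3p was −2.0, −2.53 and −2.44 in G93A/G93A, −1.95, −2.30 and −2.75 in G93A/WT, and −1.82 and −1.80 in WT/WT. All 6 arrays with mutant cells thus had a lower 5p share than the 2 WT/WT arrays, with means of −2.32 ± 0.28 and −2.33 ± 0.40 against −1.81 ± 0.02 (SD). This difference was not tested. Since miR-199a-3p also collects the 3p product of Mir199b, the ratio is not that of a single precursor.

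miR-199b-5p, the 5p arm of the paralogue on chromosome 2, did not follow miR-199a-5p. Its scaled signal was 33.4, 76.3 and 103 in G93A/G93A, 114, 139 and 136 in G93A/WT, and 97.6 and 48.7 in WT/WT. It was highest in G93A/WT, where all arrays lay above those of both other groups, and varied about 3.09-fold within G93A/G93A. The difference was −0.11 ± 0.49 for G93A/G93A against WT/WT (adjusted p = 0.961), 0.91 ± 0.49 for G93A/WT against WT/WT (adjusted p = 0.283) and −1.01 ± 0.44 for G93A/G93A against G93A/WT (adjusted p = 0.162; all SE).

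For miR-199b-5p the 2 WT/WT arrays, 1 in each slide row, stood apart. WT/WT 1 in row 1 had a log2 of 6.61 and WT/WT 2 in row 2 had 5.61, while within row 2 the G93A/G93A arrays ran from 5.06 to 6.69. The values were nearly ordered by row: of the row 2 arrays only G93A/G93A 3 (6.69) lay above the lowest of row 1, WT/WT 1 (6.61). With the row as a block, a fit that rests on the 1 WT/WT array in each row, the difference between G93A/G93A and G93A/WT went to −0.0077, that between G93A/WT and WT/WT to 0.40, and that between G93A/G93A and WT/WT to 0.40, on the other side of zero.

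Set side by side, the 5p arms of the paralogues had ratios that varied between and within media. The log2 ratio of miR-199a-5p to miR-199b-5p was 0.59, −0.98 and −0.99 in G93A/G93A, −0.82, −0.93 and −1.27 in G93A/WT, and −0.27 and 0.83 in WT/WT. All G93A/WT arrays lay below both WT/WT arrays, and G93A/G93A overlapped both groups. Over the 8 arrays the 2 miRNAs correlated at r = 0.11, against 0.81 for miR-199a-5p with miR-214-3p.

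**Figure D2:**
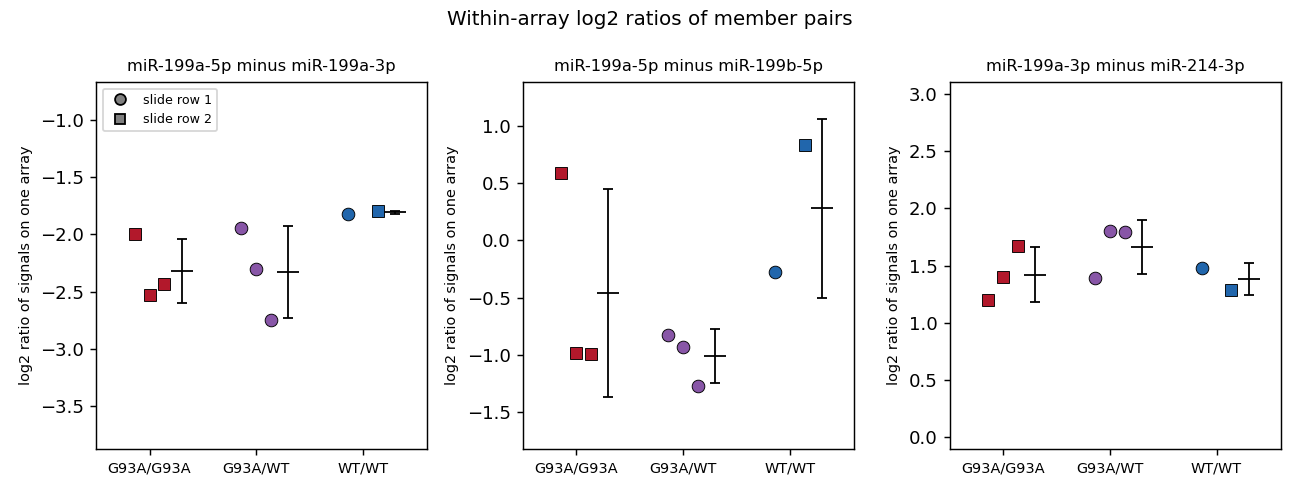
Log2 ratio of the signals of 2 members on the same array, in G93A/G93A, G93A/WT and WT/WT medium, for miR-199a-5p over miR-199a-3p, miR-199a-5p over miR-199b-5p and miR-199a-3p over miR-214-3p. Points are arrays (circles slide row 1, squares row 2) and bars the mean ± SD (n = 3, 3 and 2). The WT/WT arrays have the highest ratio of the miR-199a arms (−1.82 and −1.80), and the paralogue ratio spreads most (0.59 to −0.99 within G93A/G93A).

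miR-214-3p, made from Dnm3os together with miR-199a, had the smallest spread within groups (SD 0.11 on the log2 scale, over the 5 residual degrees of freedom of the 3 groups). Its scaled signal was 87.6, 84.3 and 88.2 in G93A/G93A, 94.3, 103 and 109 in G93A/WT, and 102 and 124 in WT/WT. The 3 G93A/G93A arrays lay within a narrow band below all others. G93A/G93A medium differed from WT/WT medium by −0.37 ± 0.12 (SE), which did not pass (adjusted p = 0.108). It was −0.14 ± 0.12 between G93A/WT and WT/WT (adjusted p = 0.477) and −0.23 ± 0.11 between G93A/G93A and G93A/WT (adjusted p = 0.190). The within-array log2 ratio of miR-199a-3p to miR-214-3p averaged 1.42 ± 0.24, 1.66 ± 0.23 and 1.38 ± 0.14 in G93A/G93A, G93A/WT and WT/WT (SD), so the groups overlapped there.

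miR-152-3p, which with its seed relative miR-148a is known for repressing Dnmt1, was lowest in G93A/G93A. Its scaled signal was 26.9, 32.5 and 38.3 in G93A/G93A, 39.8, 56.5 and 54.1 in G93A/WT, and 40.4 and 39.6 in WT/WT. All G93A/G93A arrays lay below those of the other groups, the nearest by little. The difference was −0.62 ± 0.18 against G93A/WT (SE, adjusted p = 0.0755) and −0.31 ± 0.20 against WT/WT (adjusted p = 0.372), and G93A/WT differed from WT/WT by 0.31 ± 0.20 (adjusted p = 0.359). Its seed relative miR-148a-3p, also detected on all arrays, gave −0.61 ± 0.20, −0.07 ± 0.23 and 0.54 ± 0.23 in the same 3 comparisons and did not pass either (adjusted p = 0.0938, 0.909 and 0.203). miR-148b-3p was detected on 1 array, of G93A/WT.

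miR-143-3p, the only detected product of its cluster, gave little signal. Its scaled signal was 4.32, 4.75 and 8.32 in G93A/G93A, 8.78, 9.39 and 8.26 in G93A/WT, and 6.91 and 5.80 in WT/WT. G93A/G93A 3 reached the level of the G93A/WT arrays, while the other G93A/G93A arrays were the lowest of all. The difference was −0.67 ± 0.25 between G93A/G93A and G93A/WT (SE, adjusted p = 0.125), −0.19 ± 0.28 between G93A/G93A and WT/WT (adjusted p = 0.749) and 0.48 ± 0.28 between G93A/WT and WT/WT (adjusted p = 0.307).

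**Figure D3:**
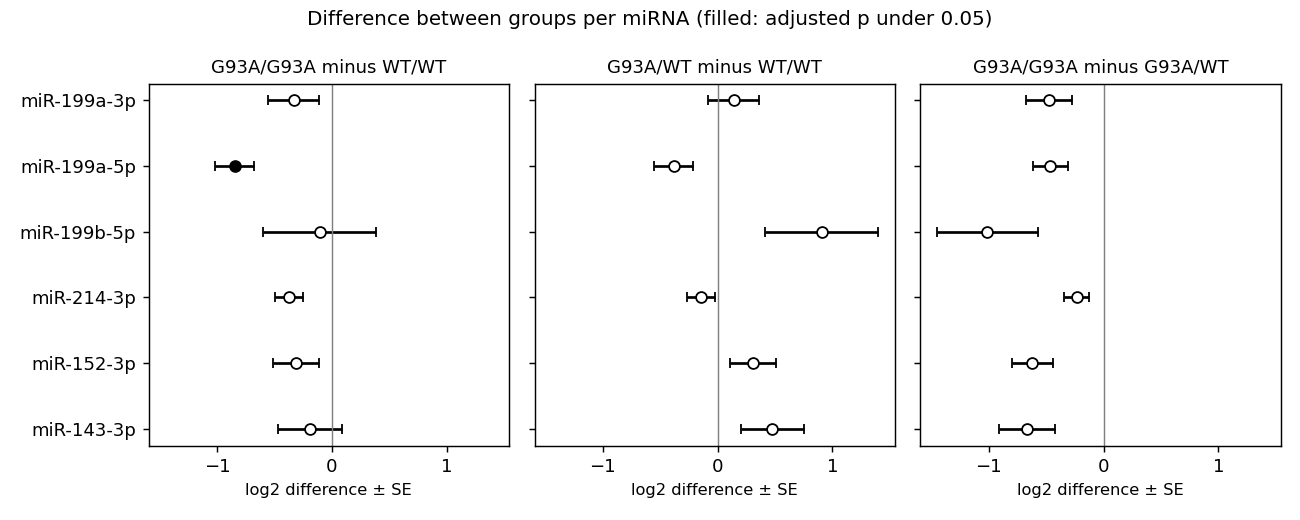
Log2 difference ± SE (limma) of the 6 detected members for G93A/G93A minus WT/WT, G93A/WT minus WT/WT and G93A/G93A minus G93A/WT; a filled circle marks an adjusted p under 0.05. All 6 lie below zero for G93A/G93A minus WT/WT and for G93A/G93A minus G93A/WT, and the filled point is miR-199a-5p at −0.85.

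In G93A/G93A against WT/WT medium 1 of 6 tested members passed, where 8.55% of all tested miRNAs were called (4.83% lower in G93A/G93A). All 6 members lay below zero, as did 50.6% of the 538 miRNAs, with a median of −0.32, beside −0.01 over all 538. Older miRNAs, those numbered below 1000, to which all members belong, had a median of −0.11 here, and 58.3% of these 290 lay below zero. For 4 of 6 members the G93A/G93A arrays lay wholly below the WT/WT arrays, which 22.7% of all tested miRNAs did.

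In G93A/G93A against G93A/WT medium 0 of 6 passed in limma, beside 10.6% of all tested miRNAs, and 4 had an unadjusted p under 0.05 beside 32.2% of all. Again all 6 lay below zero, beside 58.0% of all and 69.3% of those numbered below 1000. Their median was −0.55, against −0.10 over all tested miRNAs and −0.20 over those numbered below 1000. The groups did not overlap for 4 of 6 members, all lower in G93A/G93A, as for 19.1% of all tested miRNAs. Leaving out G93A/WT 1 made miR-199a-3p and miR-152-3p pass, in a setting where 15.1% of all tested miRNAs were called. Leaving out G93A/G93A 3 made miR-143-3p and miR-152-3p pass, where 22.7% of all were called. This comparison has the G93A/G93A and the G93A/WT arrays in different slide rows throughout.

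In G93A/WT against WT/WT medium 0 of 6 passed in limma, beside 3.90% of all tested miRNAs, and 0 had an unadjusted p under 0.05, beside 24.5% of all. Here the members went different ways: miR-199a-5p and miR-214-3p lay below zero and the other 4 above, with a median of 0.22 against 0.04 over all tested miRNAs. The arrays did not overlap for miR-199b-5p and miR-143-3p, which were higher in G93A/WT as were 19.3% of all tested miRNAs without overlap, and for miR-199a-5p, which was lower as were 26.0%. The 3 comparisons share arrays, so their values are not independent of each other.

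**Figure D4:**
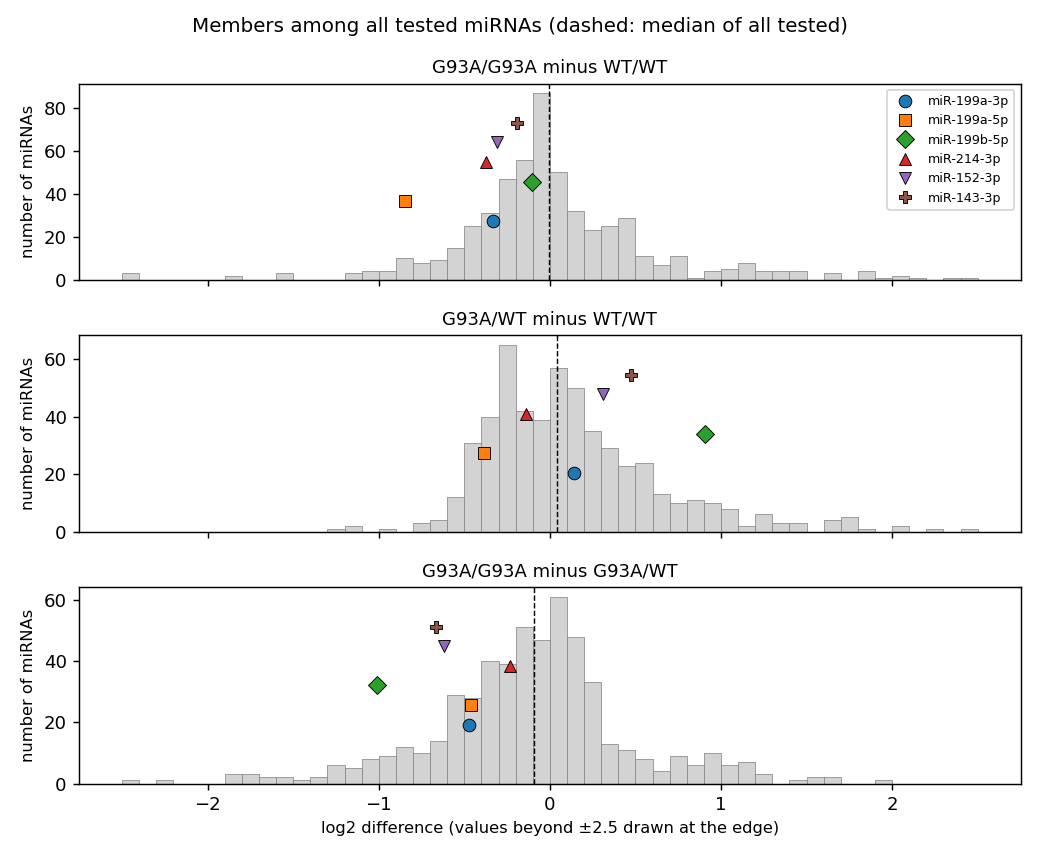
Number of miRNAs by log2 difference for the 538 tested miRNAs (grey bars) in G93A/G93A minus WT/WT, G93A/WT minus WT/WT and G93A/G93A minus G93A/WT, with the 6 detected members as symbols at their difference (their height carries no value) and the median of all tested miRNAs as a dashed line (−0.01, 0.04 and −0.10). miR-199a-5p is the member farthest to the left for G93A/G93A minus WT/WT, at −0.85, and miR-199b-5p for G93A/G93A minus G93A/WT, at −1.01.

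Other miRNAs abundant in fibroblasts and mesenchyme mostly gave differences below zero in the comparisons of G93A/G93A medium, and few passed. Of 22 on the array 21 were tested. Against WT/WT medium 2 fell, 0 rose and 19 missed the threshold, where 8.55% of all tested miRNAs were called (4.83% lower in G93A/G93A). The median was −0.45, and 18 of 21 lay below zero, beside 50.6% of all tested miRNAs and 58.3% of those numbered below 1000. The 2 that fell were miR-125b-5p, known to restrain myoblast differentiation (−0.79 ± 0.11, SE, adjusted p = 0.00929), and miR-23b-3p (−0.76 ± 0.14, adjusted p = 0.0234). miR-21a-5p, a miRNA raised in fibrotic tissue (−0.50, adjusted p = 0.194), and miR-24-3p (−0.37, adjusted p = 0.108) did not pass. The count of 2 was 0 when the slide row was a block, within row 2, without scaling, and when WT/WT 1 or WT/WT 2 was left out, and 6 without G93A/G93A 3.

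In G93A/G93A against G93A/WT 1 of the 21 was lower, miR-10a-5p of the Hox clusters (−0.87 ± 0.18, SE, adjusted p = 0.0228), where 10.6% of all tested miRNAs were called. All 21 lay below zero (median −0.45), beside 58.0% of all tested miRNAs and 69.3% of those numbered below 1000. The count of 1 dropped to 0 when slide row was a block, where 0.00% of all tested miRNAs were called, so that 0 is not particular to the list. It was 0 without G93A/WT 2 (7.99% of all called), G93A/WT 3 (10.2%), G93A/G93A 1 (8.55%) or G93A/G93A 2 (7.06%). It was also 0 with the authors' values (9.15%) and with the replicate number as a block (6.88%). It was 5 when G93A/WT 1 was omitted (15.1%), 7 when G93A/G93A 3 was (22.7%), and 15 without scaling (27.7%). In G93A/WT against WT/WT 0 of 21 passed in limma, beside 3.90% of all tested miRNAs, and 2 had an unadjusted p under 0.05, beside 24.5%. The median was 0.09, against 0.04 over all tested miRNAs. The summed scaled signal of the 22 ran from 1820 to 2309 in G93A/G93A, 2671 to 2847 in G93A/WT and 2912 to 3004 in WT/WT, without overlap between groups. This sum weighs the brightest miRNAs most and does not describe the list as a whole. Between G93A/WT and WT/WT miR-125b-5p had mean log2 values of 9.38 and 9.83 and miR-21a-5p 9.49 and 9.37, and 10 of the 21 tested lay below zero. The order of the sums was not tested.

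Markers of other cell types differed in how they compared between media. The summed scaled signal of the 6 muscle miRNAs was 4094 to 5063 in G93A/G93A, 4341 to 5258 in G93A/WT and 4522 to 5194 in WT/WT, and 0 of 4 tested passed in limma in any of the 3 comparisons, with 0 at an unadjusted p under 0.05. Epithelial miRNAs were mostly below detection in G93A/G93A medium. miR-200b-3p, miR-200c-3p, miR-429-3p and miR-203-3p were detected on 0 of 3 G93A/G93A, 3 of 3 G93A/WT and 2 of 2 WT/WT arrays, and miR-205-5p on 2, 3 and 2. The summed signal of the 7 listed was 0 to 5.36 in G93A/G93A, 61.2 to 85.0 in G93A/WT and 138 to 166 in WT/WT, with miR-200a-3p and miR-141-3p undetected throughout. Since 4 of the 5 tested stand at the floor in G93A/G93A, their differences depend on that floor: 5 of 5 were called lower against WT/WT and 5 of 5 against G93A/WT, but 3 and 1 with the floor doubled, and 4 and 0 when slide row was a block. The arm miR-200a-5p, outside the list, lay above zero against WT/WT and did not pass (1.08 ± 0.43, SE, adjusted p = 0.162).

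The leukocyte miRNA miR-223-3p was higher in G93A/G93A than WT/WT medium. Its log2 scaled signal was 7.04, 7.31 and 7.27 in G93A/G93A, 7.06, 7.11 and 7.19 in G93A/WT, and 6.74 and 6.63 in WT/WT. Both groups with mutant cells lay above WT/WT, by 0.52 ± 0.12 for G93A/G93A (SE, adjusted p = 0.0433) and by 0.43 ± 0.12 for G93A/WT (adjusted p = 0.0793). The G93A/G93A call passed in 8 of 22 alternative settings (adjusted p = 0.0146 to 0.425), was lost when slide row was a block, and with 1 array left out it held only without G93A/G93A 1. The other tested leukocyte miRNA, miR-155-5p, did not pass in any comparison, and miR-142a-3p, miR-142a-5p and miR-150-5p were undetected. Of the tested erythroid and serum (4), neural (2) and endothelial (1) miRNAs 0 passed in limma, with 1 at an unadjusted p under 0.05, in G93A/WT against WT/WT. The part of epithelial or other non-muscle cells in the miR-199a-5p difference was not tested, and in medium fewer cells of a type and less miRNA released per cell cannot be told apart.

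The 6 members did not form 1 pattern over the 8 arrays. miR-199a-3p and miR-152-3p correlated at r = 0.96, miR-199b-5p and miR-143-3p at r = 0.88, and miR-199a-5p and miR-214-3p at r = 0.81, whereas miR-199b-5p and miR-214-3p stood at r = 0.09. Over all pairs among the 423 miRNAs detected everywhere, the median r was 0.02 and 4.79% of pairs reached 0.8. These correlations are over 8 arrays that share a slide and a scaling, and group differences enter them.

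Among the 417 other miRNAs detected on all arrays, those most like miR-199a-5p were miR-337-5p (r = 0.93), miR-99b-5p (0.93) and miR-125b-5p (0.91). Those most like miR-214-3p were let-7e-5p (0.94), miR-532-5p (0.91) and miR-24-3p (0.90). miR-20a-5p (0.96), miR-224-5p (0.91) and miR-93-5p (0.90) lay closest to miR-199a-3p, and miR-27b-3p, miR-674-3p and miR-15a-5p (0.97 each) to miR-199b-5p. miR-26a-5p (0.96), miR-22-3p (0.94) and miR-103-3p (0.92) lay closest to miR-152-3p, and miR-30e-5p (0.96), miR-6939-5p (0.95) and miR-542-3p (0.94) to miR-143-3p. The mean of the 6 centred members was followed most closely by miR-10a-5p and miR-22-3p (0.97 each), both of the fibroblast list, and by miR-26a-5p (0.95), miR-425-5p (0.95) and miR-30e-5p (0.94).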

How the data were processed

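The deposited array files hold, per the file headers, a linear intensity for each miRNA (the total gene signal) with an error and a flag for detection; an undetected miRNA is listed at 0.1. For the scanner software and the background correction, nothing is stated in the labels or headers read here. Labelling used 150 ng of small RNA from 600 µl of medium, per the labels' protocols. The authors' deposited processed table (intensity, normalization unknown, 492 mouse miRNAs) served as an alternative.

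Each array was scaled on the 75th percentile of the 423 miRNAs detected on all 8 arrays, floored at 1.52 units and taken to log2. The 538 miRNAs detected on at least 2 arrays were fitted with limma 3.58.1 in R 4.3.3 (lmFit, eBayes, 3 groups with 1 shared spread), with Benjamini-Hochberg adjustment over all 538 and a threshold of 0.05. Every adjusted p is from this fit unless another setting is named. The fit was tested on simulated data. Only 2 or 3 arrays per group limit the precision.

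All 9 members are described; other miRNAs were named where they passed in a list, were among the 3 highest in signal of a related list, or correlated best with a member, apart from miR-205-5p, the other epithelial and muscle miRNAs and those sharing an array order, named after their values were seen. The members and lists were chosen with earlier results of these data known.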

Additional observations from a re-analysis of the deposited data

Results flagged for a closer look

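miR-214-5p, the 5p arm of Mir214, entered no comparison because 1 array is under the minimum for testing, yet it was detected on G93A/G93A 1 at a signal of 7.07 before scaling (scanner error 0.964) and on no WT/WT array. The other 2 G93A/G93A arrays and the 3 G93A/WT arrays did not detect it either. Detection on 1 array alone was seen for 48 of the 1881 mouse miRNAs. On the same array the 3p arm, miR-214-3p, stood at a scaled signal of 87.6, between the 84.3 and 88.2 of the other G93A/G93A arrays.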

How the results depend on the processing

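Between G93A/G93A and WT/WT the number of members called was 1 (miR-199a-5p) and fell to 0 with quantile normalization, without scaling, with miRNAs numbered below and from 1000 centred separately, with only the 2 groups fitted, when slide row was a block, within row 2, and with the replicate number as a block; it was 0 to 1 when an array was left out. The fit of all 1881 miRNAs without a detection filter is void here: it called 1413, of which 1302 stand at the floor on all 8 arrays, so its 2 members (miR-199a-5p and miR-214-3p) are not read and it is left out of the counts below; testing the 586 miRNAs detected on at least 1 array, an alternative chosen after seeing the data, gave 1 (miR-199a-5p). Between G93A/WT and WT/WT it was 0 in every setting run except no scaling, which gave 2 (miR-199b-5p and miR-143-3p) with 24.2% of all tested miRNAs called, and between G93A/G93A and G93A/WT 0 except for 5 without scaling, with 27.7% of all called, and 0 to 2 with an array left out, with 15.1% and 22.7% of all called where it was 2. Without scaling the median of all tested miRNAs lay at 0.08, 0.79 and −0.68 in the 3 comparisons in the order G93A/G93A against WT/WT, G93A/WT against WT/WT and G93A/G93A against G93A/WT. Scaling multiplies each array by 1 factor, so without it all 6 tested members moved by the same amount within a comparison. That they kept their side of this median is therefore no check on them. miR-199b-5p between G93A/G93A and WT/WT turned to 0.058 without scaling, 0.016 with the authors' values and 0.40 with the row as a block or within row 2, and ran from −0.61 (without WT/WT 2) to 0.40 (without WT/WT 1) with an array left out, with 0.36 without G93A/G93A 1; between G93A/WT and WT/WT miR-199a-5p turned to 0.39 and miR-214-3p to 0.63 without scaling. The turns without scaling follow from leaving out the array factors, which moves all 6 members by the same amount within a comparison. The cause of the turns in other settings was not tested. Of 390 single-member values under alternatives, 359 kept their direction and side of the threshold, 12 lost and 11 gained a call, and 8 turned. Settings such as a changed floor or filter leave a member's difference as it was, so the 359 are not separate checks of direction. The within-array ratios moved by less than the spread between arrays with the authors' values, with quantile normalization and with any array left out. Same-numbered arrays correlated between −0.35 and 0.21 in their deviations from the group means. Deviations within a group of 2 or 3 arrays cancel each other, so these correlations cannot decide whether the numbers pair the samples. With the replicate block miR-199a-5p lay at −0.84 between G93A/G93A and WT/WT (limma adjusted p = 0.133) and 0 members passed in any comparison. Scaling on the 75th percentile over all 1881 miRNAs was not run, since on 3 arrays that percentile is the 0.1 listed for undetected miRNAs.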
